A study of Mus musculus with 6 samples.

Results

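A set of 40 genes of fibroblasts and the extracellular matrix is described across control and Dazl-knockdown mouse primordial germ cells made in culture. They were chosen by name, as products that fibroblasts secrete, use to remodel the matrix or are recognised by. The choice was made with earlier results of these data known, so counts over the 40 are a description. All 40 were measured, that is, well above background on at least 2 of 6 arrays, out of 20233 genes tested. The samples were male Oct4-GFP embryonic stem cells of a C57BL/6 129SV mixed background, which carried a control vector or a Dazl knockdown vector with hairpin 1 (sh1) or hairpin 2 (sh2). Every vector also carried the tdTomato fluorescent marker, and every cell line the Oct4-GFP transgene. The stem cells were freed of feeder cells by letting these settle on plastic, grown on gelatin in differentiation medium for 9 or 12 days, and sorted for cells with both colours. There were 6 samples, a control, a hairpin 1 and a hairpin 2 sample at day 9 and again at day 12, each on its own array. Whether the cells of a vector were a clone or a pool is not given in the sources used here.

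Fibroblasts and other mesenchymal cells build the interstitial matrix. Triple-helical collagen chains are secreted, trimmed and assembled into fibrils, small proteoglycans such as lumican and decorin coat the fibrils and set their spacing, and lysyl oxidases crosslink them. Fibrillins and fibulins form elastic fibres, matricellular proteins such as periostin and tenascin C modulate adhesion, and metalloproteinases and their TIMP inhibitors turn the matrix over. Type IV collagen belongs to another structure, the basement membrane under epithelia and endoderm. Primordial germ cells migrate through such matrices in the embryo, and their own neighbours and the feeder cells of stem cell cultures make much of it.

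Levels are given as log2 signal relative to the 75th percentile of the same array, so that 0 is that percentile. A level belongs to 1 probe and is not compared between genes. Of 41174 probes, 70.3% to 73.3% per array were well above background. Dazl, the target of the hairpins, was at 1.32 and 2.58 on the control arrays of days 9 and 12, at -3.05 and -2.24 with hairpin 1 and at -2.28 and -1.84 with hairpin 2. All 9 measured germ cell markers, Dazl among them, were well above background on all 6 arrays. The brightest were Pou5f1 (Oct4), Tfap2c and Dppa3, with knockdown differences of 0.69 (SE 0.15), -0.13 (SE 0.16) and -0.62 (SE 0.28). The summed level of the 9 was 57.2 to 58.7 times the 75th percentile in control and 51.9 to 55.9 times in knockdown arrays. That sum includes Dazl, which the hairpins lower, so its lack of overlap does not speak for the other markers. With Dazl counted, 7 of the 9 were lower in knockdown, with a median of -0.13. The 40 genes were mostly well above background too, on all 6 arrays for 37, on 5 for Dcn, on 4 for Lum and on 3 for Lox. In RNA from a sorted population, fewer cells that make a transcript and less of it per cell cannot be told apart.

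The comparison of knockdown with control asks what differs in germ cells with little Dazl. Matrix genes were mostly higher in the knockdown arrays: 33 of the 40 had a higher and 7 a lower fitted level, where 49.6% of all genes tested had a higher one. The median log2 difference of the 40 was 0.35, against -0.00 over all genes. The most marked differences were in lumican (Lum), lysyl oxidase (Lox), the type III collagen chain (Col3a1), periostin (Postn) and tenascin C (Tnc), 5 genes with a fitted difference of at least 2-fold, a size that 0.702% of all genes reached in that direction. With normexp, a background correction that compresses dim signals and moved the median of all genes to 0.12, Col3a1 alone of the 5 kept that size (1.20), while Postn had 0.93, Lum 0.66, Tnc 0.58 and Lox 0.43. Genes were tested only if well above background on at least 2 of 6 arrays, and Lox met this through knockdown arrays alone. Its place among the 5, and in the counts of higher genes, is therefore no support for a difference. Among the 40, Timp3, an inhibitor of metalloproteinases that is held in the matrix, stood alone in being lower with both hairpins on both days.

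None of these differences passed the test over all genes. With limma, 0 of the 40 and 0 of the 20233 genes (0%) had an adjusted p under 0.05, and the lowest adjusted p among the 40 was 0.182, for Timp3. At an unadjusted p under 0.05, 9 of the 40 were higher, where 5.06% of all genes were, and 1 was lower, where 4.88% were. In all 4 pairs of a knockdown array with the control array of its day, 18 of the 40 were higher, against 16.2% of all genes, and 1 was lower, against 17.2%. The 4 pairs share 2 control arrays, so they are not 4 independent comparisons. The count of higher genes ranged from 32 to 36 when any 1 array was left out. The median fell to 0.22 without the control array of day 12, when the contrast rests on day 9.

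**Figure D1:**
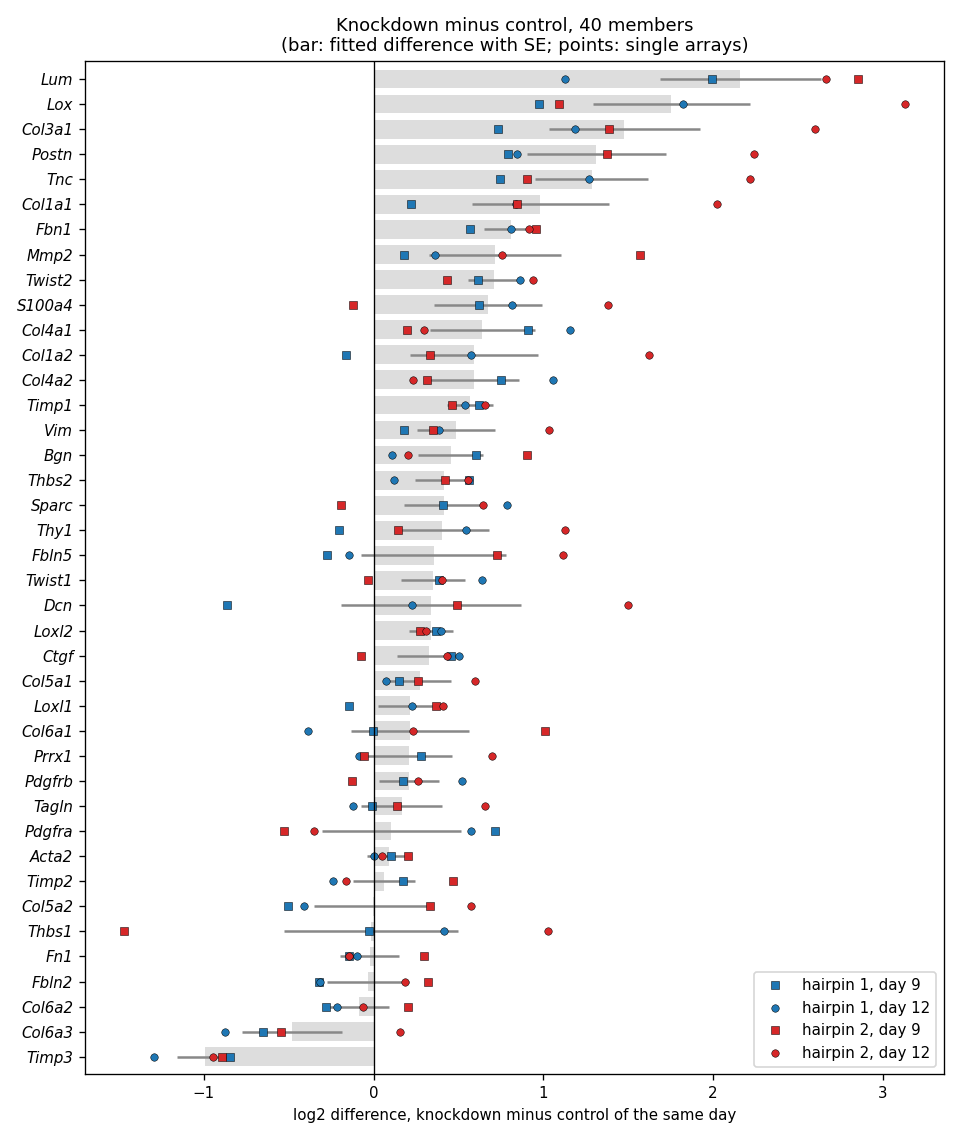
Log2 difference of each knockdown array from the control array of its day (x axis) for the 40 genes (y axis). Blue points are hairpin 1 and red points hairpin 2, squares day 9 and circles day 12, and the grey bar is the fitted difference with its standard error as a line. Lum has the longest bar to the right at 2.16 and Timp3 the longest to the left at -1.0, and red circles lie farthest right for many genes.

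Among the interstitial collagens, the type III chain differed most. On the control arrays Col3a1 was at -2.24 at day 9 and -2.53 at day 12, with hairpin 1 at -1.51 and -1.35, and with hairpin 2 at -0.86 and 0.07. Knockdown and control values did not overlap, hairpin 2 was above hairpin 1 on both days, and the highest value was hairpin 2 at day 12. The fitted difference was 1.48 (SE 0.45, 2.78-fold, adjusted p = 0.394). Col3a1 lies on chromosome 1, and the stretch before its annotated start is shown because Col3a1 is among the 5 genes with a 2-fold difference and holds a TATAAA motif, the core of the TATA box:
Col3a1: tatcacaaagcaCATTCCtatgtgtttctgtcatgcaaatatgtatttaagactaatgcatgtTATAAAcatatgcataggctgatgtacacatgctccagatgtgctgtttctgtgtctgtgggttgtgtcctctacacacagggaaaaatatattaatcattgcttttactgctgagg
This is chr1:45311358-45311537 of the plus strand in the RefSeq annotation of GRCm38.p6, 5′ to 3′, up to the base before the start. Capitals mark TATAAA, whose first base lies 117 bases before the start, and GGAATG read on the other strand, the core of the TEAD factor motif, 168 bases before it.

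The 2 chains of type I collagen, the main fibril of bone, skin and tendon, had the same order of vectors at day 12. Col1a1 was at 0.61 and -0.81 in control, 0.83 and 0.03 with hairpin 1 and 1.45 and 1.21 with hairpin 2, at day 9 and day 12. It was higher in all 4 pairs, with a fitted difference of 0.98 (SE 0.40, adjusted p = 0.507). A further Col1a1 probe gave 0.96. Col1a2 was at 1.52 and -0.51 in control, 1.36 and 0.06 with hairpin 1, and 1.85 and 1.11 with hairpin 2. At day 9 its hairpin 1 array lay below control and its hairpin 2 array above, and at day 12 both were above; the fitted difference was 0.59 (SE 0.38, adjusted p = 0.662). The stretch before the Col1a2 start is shown for comparison with that of Col3a1:
Col1a2: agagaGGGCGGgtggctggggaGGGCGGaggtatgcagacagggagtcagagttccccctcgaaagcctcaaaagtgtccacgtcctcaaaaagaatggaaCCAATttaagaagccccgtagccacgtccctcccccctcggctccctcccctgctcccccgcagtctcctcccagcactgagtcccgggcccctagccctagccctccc
It is chr6:4505408-4505617 of the plus strand in GRCm38.p6. Capitals mark GGGCGG, the core bound by Sp1, 205 and 188 bases before the start, and CCAAT, the core bound by NF-Y, 109 bases before it. The stretch has 63.8% G and C, against 37.2% in that of Col3a1.

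The remaining interstitial chains differed less, and not one way. Col5a1, a type V chain that seeds fibrils, was higher in all 4 pairs but by a fitted 0.27 (SE 0.19), and its dimmer probe gave -0.25. The other type V chain, Col5a2, had a fitted difference of -0.00 (SE 0.35), with hairpin 1 below control on both days and hairpin 2 above. Type VI chains form beaded filaments around cells. Col6a1 had 0.21 (SE 0.35), Col6a2 -0.09 (SE 0.18) and Col6a3 -0.48 (SE 0.29), and Col6a3 was lower in 3 of 4 pairs. The sign for Col5a2, Col6a2 and Col6a3 was not the same under every processing alternative with all arrays, where they ranged from -0.00 to 0.22, from -0.21 to 0.17 and from -0.48 to 0.01.

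The 2 type IV chains of the basement membrane, Col4a1 and Col4a2, were higher in all 4 pairs, but most with hairpin 1. Col4a1 was at 1.36 and 1.35 in control, 2.27 and 2.5 with hairpin 1, and 1.55 and 1.64 with hairpin 2. Col4a2 was at 1.93 and 1.58 in control, 2.68 and 2.64 with hairpin 1, and 2.24 and 1.82 with hairpin 2. For both genes the hairpin 1 arrays stood above the hairpin 2 arrays, and the lowest value was a control array. The fitted differences from control were 0.64 (SE 0.31, adjusted p = 0.559) and 0.59 (SE 0.27, adjusted p = 0.534). A further probe of each gene gave 0.82 and 0.57.

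Lumican, a small proteoglycan of collagen fibrils, had the largest fitted difference of the 40. Lum was at -9.02 in control, -7.03 with hairpin 1 and -6.16 with hairpin 2 at day 9, and at -5.87, -4.74 and -3.20 at day 12. On each day control was lowest and hairpin 2 highest, while the control array of day 12 was above both knockdown arrays of day 9. The fitted difference was 2.16 (SE 0.47, adjusted p = 0.281), with 1 of 2 control and 3 of 4 knockdown arrays well above background, so its size rests in part on values near background. At day 12, where all 3 arrays were well above background, it was 1.90 (SE 0.71). The difference at day 9 is given as a bound: at least 1.30-fold higher in knockdown, with 1 of 2 knockdown arrays well above background. Such a bound sets the mean of the brighter group against the lowest signal well above background on the dimmer group's arrays. Decorin (Dcn), which binds collagen and growth factors, was at -6.06 and -5.66 in control, -6.92 and -5.44 with hairpin 1 and -5.57 and -4.17 with hairpin 2, and differed by 0.34 (SE 0.53). Biglycan (Bgn), its close relative, was higher in all 4 pairs, by a fitted 0.46 (SE 0.19, adjusted p = 0.514).

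Of the crosslinking enzymes, Lox was close to background. It was at -7.27 and -8.50 in control, -6.30 and -6.68 with hairpin 1 and -6.18 and -5.37 with hairpin 2. No control array was well above background, nor was hairpin 1 at day 12. As a bound, Lox was at least 1.78-fold higher in knockdown over both days, with 3 of 4 knockdown arrays well above background. The bounds were 1.66-fold at day 9, and 1.91-fold at day 12 with 1 of 2 knockdown arrays well above background. The fitted difference was 1.75 (SE 0.46, adjusted p = 0.354). Lox was tested only because knockdown arrays passed the filter, so its bounds and fit are no support for a difference. Its relatives differed less: Loxl2 by 0.34 (SE 0.13, adjusted p = 0.473) with all 4 pairs higher, and Loxl1 by 0.22 (SE 0.19).

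Adhesive and elastic-fibre proteins were split. Fibrillin 1 (Fbn1), the backbone of microfibrils, was at -5.18 and -4.88 in control, -4.62 and -4.07 with hairpin 1, and -4.23 and -3.97 with hairpin 2. Every knockdown value was above both control values, and the 2 hairpins differed little. The fitted difference was 0.81 (SE 0.16, 1.76-fold, adjusted p = 0.250). Fibronectin (Fn1), the main adhesive protein of early matrices, lay between 4.18 and 4.73 on all 6 arrays, with a difference of -0.02 (SE 0.17) that ranged from -0.05 to 0.01 with all arrays and from -0.13 to 0.07 when an array was left out. Fibulin 2 (Fbln2), which binds fibronectin and fibrillin, had -0.03 (SE 0.24). Fibulin 5 (Fbln5), needed to assemble elastic fibres, had 0.36 (SE 0.43), with the 2 hairpins on opposite sides of control, as described with the hairpins.

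The matricellular proteins held 2 of the 5 genes with at least a 2-fold difference. Postn was at -2.88 and -3.93 in control, -2.09 and -3.08 with hairpin 1 and -1.51 and -1.69 with hairpin 2. Within each day the order was control, hairpin 1, hairpin 2. The fitted difference was 1.31 (SE 0.41, 2.48-fold, adjusted p = 0.410). Tnc was at -5.38 and -6.02 in control, -4.64 and -4.75 with hairpin 1, and -4.48 and -3.80 with hairpin 2, with no overlap between control and knockdown. Its difference was 1.28 (SE 0.33, 2.44-fold, adjusted p = 0.349). The stretches before a start of each gene are shown because both hold TATAAA, at different distances:
Postn: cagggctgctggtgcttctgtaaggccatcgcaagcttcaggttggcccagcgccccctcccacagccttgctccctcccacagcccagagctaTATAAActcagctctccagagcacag
Tnc: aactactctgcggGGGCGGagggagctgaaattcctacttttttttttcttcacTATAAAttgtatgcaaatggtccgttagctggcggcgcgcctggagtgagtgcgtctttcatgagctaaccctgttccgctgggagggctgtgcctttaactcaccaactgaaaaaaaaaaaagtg
The first is chr3:54360987-54361106 on the plus strand, before the downstream of 2 Postn starts in the table, and the second chr4:64047016-64047195 on the minus strand, before the upstream of 2 Tnc starts (GRCm38.p6). Capitals mark TATAAA, 26 bases before the Postn start and 126 before that of Tnc, and GGGCGG 167 bases before that of Tnc.

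The other matricellular genes differed by less. Thrombospondin 2 (Thbs2), an inhibitor of angiogenesis, was higher in all 4 pairs by a fitted 0.41 (SE 0.17, adjusted p = 0.510). Sparc, a collagen-binding protein, lay between 4.01 and 4.83 and had 0.41 (SE 0.24). Connective tissue growth factor (Ctgf, now Ccn2) lay between 3.55 and 4.32 and had 0.33 (SE 0.19). Thrombospondin 1 (Thbs1), an activator of latent TGF-beta, was at -1.64 and -2.61 in control, -1.66 and -2.19 with hairpin 1 and -3.11 and -1.58 with hairpin 2. Its hairpin 2 arrays were the lowest and the highest of the 6, and the difference was -0.01 (SE 0.51), with a range of -0.75 to 0.72 when an array was left out. Its 2 dimmer probes, at -6.85 to -5.26, did not show that low value of hairpin 2 at day 9.

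Among the regulators of matrix turnover, Timp1 and Timp3 went opposite ways. Timp3 was at 0.47 and 0.80 in control, -0.38 and -0.49 with hairpin 1 and -0.43 and -0.15 with hairpin 2. The lowest control value was above every knockdown value, and the 2 hairpins lay close together. The difference was -1.0 (SE 0.16, 1.99-fold lower, unadjusted p = 0.000866). Timp1, a soluble inhibitor, was at 2.34 and 2.46 in control, 2.96 and 3.0 with hairpin 1, and 2.80 and 3.11 with hairpin 2. Here every knockdown value was above both control values, by a fitted 0.57 (SE 0.13, adjusted p = 0.307), and its 2 other probes gave 0.60 and 0.78. Timp2, which also helps activate Mmp2, differed by 0.06 (SE 0.18). Mmp2, a gelatinase, was at -0.64 and -0.54 in control, -0.46 and -0.18 with hairpin 1, and 0.93 and 0.21 with hairpin 2, a difference of 0.72 (SE 0.39, adjusted p = 0.607).

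Surface markers and receptors of mesenchymal cells differed by vector or day. Thy1, a surface marker of fibroblasts, had a fitted 0.40 (SE 0.28), from -0.20 with hairpin 1 at day 9 to 1.13 with hairpin 2 at day 12. Its dimmer probe gave -0.08 (SE 0.33). Pdgfra, the receptor of mesenchymal progenitors and primitive endoderm, had 0.10 (SE 0.41), the mean of values above control with hairpin 1 (0.72 and 0.57) and below it with hairpin 2 (-0.53 and -0.35). Pdgfrb, the receptor of pericytes, had 0.21 (SE 0.18). Of the cytoskeletal genes, vimentin (Vim) was higher in all 4 pairs by a fitted 0.49 (SE 0.23, adjusted p = 0.550), and S100a4 (fibroblast-specific protein) in 3 of 4 by 0.67 (SE 0.32, adjusted p = 0.550). The smooth muscle genes Tagln and Acta2 had 0.17 (SE 0.24) and 0.09 (SE 0.13). The brightest Acta2 probe lay between 3.07 and 3.27 on all arrays, while another bright probe of the gene was at 1.39 and 0.17 in control, 1.64 and 0.40 with hairpin 1, and 3.19 and 1.99 with hairpin 2. A dimmer probe, well above background on all arrays, gave 0.77 between knockdown and control and 1.36 between hairpins. The bright alternative gave 1.03 and 1.57, and the brightest 0.09 and 0.07. A still dimmer probe, also well above background on all arrays, gave -0.35 (SE 0.32) and 0.34 (SE 0.36). The probes therefore give different accounts of Acta2.

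The 3 mesenchymal transcription factors were higher in the fit. Twist2 was at -3.88 and -4.71 in control, -3.26 and -3.85 with hairpin 1, and -3.44 and -3.77 with hairpin 2. All 4 knockdown values were above both control values, by a fitted 0.71 (SE 0.15, 1.64-fold, adjusted p = 0.279). Twist1 had 0.35 (SE 0.19) with 3 of 4 pairs higher, and Prrx1 0.21 (SE 0.25) with 2 of 4. Dimmer Prrx1 probes gave 0.32 (SE 0.39), 0.24 (SE 0.17) and -0.32 (SE 0.22).

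**Figure D2:**
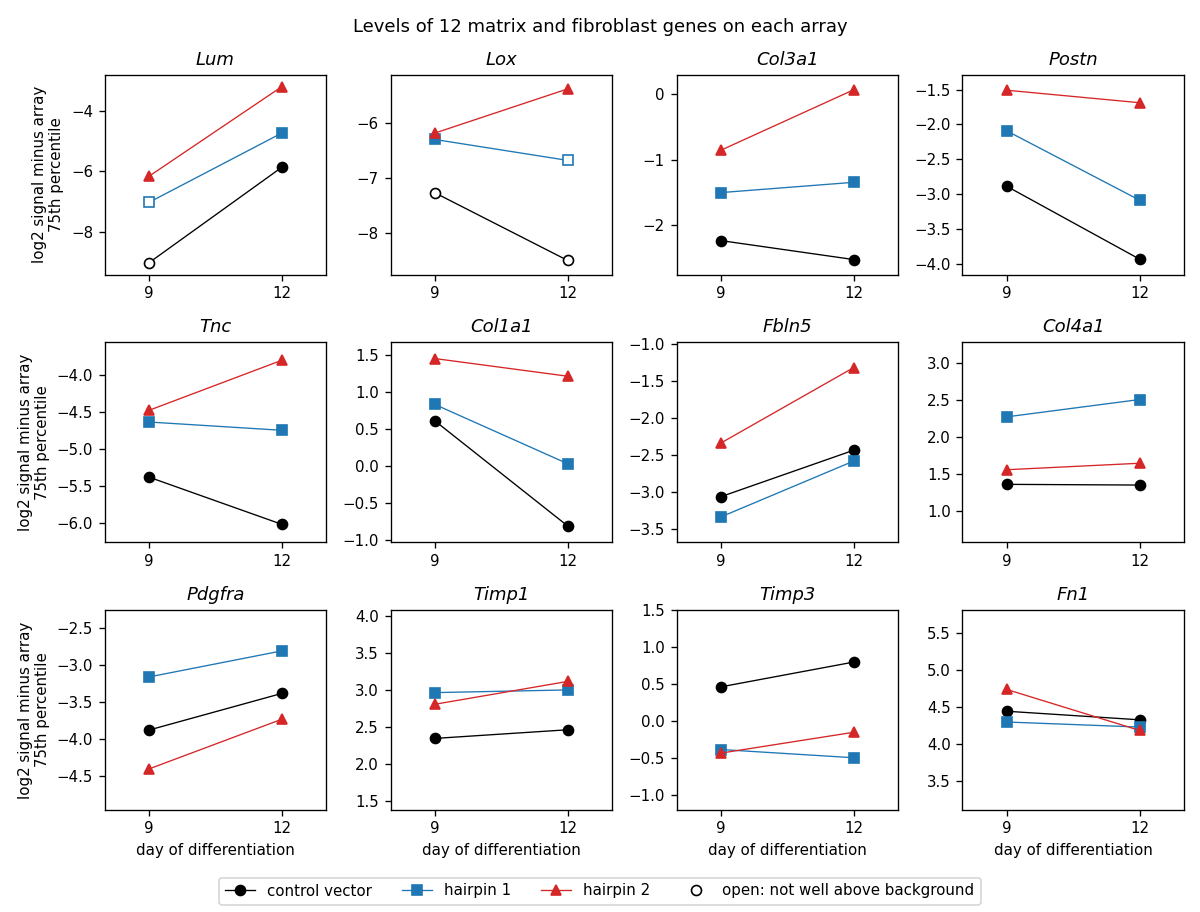
Log2 signal minus the array's 75th percentile (y axis, scaled per gene) at day 9 and day 12 (x axis) for 12 of the genes. Black circles are control, blue squares hairpin 1 and red triangles hairpin 2, lines join arrays of 1 vector, and open symbols are not well above background. For Col3a1, Postn and Tnc the black circles are lowest and the red triangles highest on both days, for Col4a1 and Pdgfra the blue squares are highest, and for Timp3 the black circles are highest.

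The 2 hairpins differed from each other as well. The fitted difference between them rests on the knockdown arrays, while the control arrays enter its SE and p. Collagens and proteoglycans of the interstitial matrix were higher with hairpin 2, while the type IV chains and Pdgfra were higher with hairpin 1. Of the 40 genes, 28 had a higher and 12 a lower fitted level with hairpin 2, where 52.3% of all genes had a higher one, and the median log2 difference was 0.28 against 0.02 over all genes. That median was 0.15 without hairpin 2 of day 12 and 0.47 without hairpin 2 of day 9. With limma, 0 of the 40 passed, where 2 of 20233 genes (0.00988%) did. At an unadjusted p under 0.05, 10 of the 40 were higher, where 6.13% of all genes were, and 3 lower, where 5.45% were. On both days, 24 were higher with hairpin 2, against 31.9% of all genes, and 8 were lower, against 27%. A difference of at least 2-fold was fitted for 4 genes higher with hairpin 2 (Dcn, Lum, Fbln5 and Col3a1), against 1.61% of all genes, and for 1 lower (Pdgfra), against 1.35%.

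By role, all 8 interstitial collagen chains, all 3 small proteoglycans and all 4 elastic-fibre and adhesive proteins had a higher fitted level with hairpin 2. The chains were Col3a1 (1.03, SE 0.30), Col5a2 (0.91, SE 0.16), Col1a1 (0.90, SE 0.29), Col6a1 (0.82, SE 0.23), Col1a2 (0.77, SE 0.31), Col6a3 (0.57, SE 0.26), Col6a2 (0.32, SE 0.17) and Col5a1 (0.32, SE 0.18), and Col6a2 came to -0.00 under another processing alternative. A dimmer Col6a2 probe, well above background on all 6 arrays, gave -0.32 (SE 0.22). The adjusted p of the chains ranged upwards from 0.140, for Col5a2, which was at -4.68 and -5.36 with hairpin 1 and at -3.84 and -4.37 with hairpin 2. Dcn was higher by 1.31 (SE 0.30, adjusted p = 0.201) and Lum by 1.20 (SE 0.25, adjusted p = 0.172). The gap in Dcn was 1.27 at day 12; at day 9 its hairpin 1 array was not well above background, nor was that of Lum, so the fitted sizes rest in part on values near background.

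Fbln5 had the smallest p of the 40 genes among those higher with hairpin 2. It was at -3.07 and -2.44 in control, -3.34 and -2.59 with hairpin 1 and -2.34 and -1.32 with hairpin 2. On both days hairpin 1 lay just below control and hairpin 2 well above it. The difference between hairpins was 1.13 (SE 0.18, 2.19-fold, adjusted p = 0.119), and with normexp, where the median of all genes moved to 0.17, it was 0.93 and passed (adjusted p = 0.0461). The stretch before the upstream of its 2 starts is shown for comparison with the collagen genes:
Fbln5: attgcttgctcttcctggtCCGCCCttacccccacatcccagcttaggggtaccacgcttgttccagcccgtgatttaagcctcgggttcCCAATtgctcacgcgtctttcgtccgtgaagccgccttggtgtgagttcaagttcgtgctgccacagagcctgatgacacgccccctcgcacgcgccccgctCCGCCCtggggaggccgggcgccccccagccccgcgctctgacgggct
This is chr12:101819120-101819359 on the minus strand of GRCm38.p6. Capitals mark GGGCGG read on the other strand, 221 and 48 bases before the start, and CCAAT 150 bases before it, the same 2 motifs that the Col1a2 stretch holds.

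In the other direction, Pdgfra was at -3.16 and -2.81 with hairpin 1, at -4.40 and -3.73 with hairpin 2, and at -3.88 and -3.38 in control. Control lay between the hairpins on both days. The difference between hairpins was -1.08 (SE 0.17, 2.12-fold, adjusted p = 0.119), a dimmer probe gave -0.91, and under the alternatives with all arrays it ranged from -1.09 to -0.15. Col4a1 was lower with hairpin 2 by 0.79 on the log2 scale (SE 0.16, adjusted p = 0.178) and Col4a2 by 0.63 (SE 0.18, adjusted p = 0.283), with the per-array values given above. Sparc, Ctgf, Pdgfrb, Twist1 and Loxl2 were also lower with hairpin 2 on both days, by fitted values of -0.37, -0.30, -0.28, -0.33 and -0.09. The sign for Twist1 and Loxl2 was not the same under every alternative.

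Markers of parietal endoderm, the cells that lay down the thick basement membrane of the yolk sac, were also higher with hairpin 1 in the fit. All 10 of its measured markers, none of them among the 40, were well above background on every array and lower with hairpin 2 in the fit, with a median of -0.65, and 8 were lower on both days. Their summed level was 60.4 and 58.6 times the 75th percentile with hairpin 1, 42.0 and 53.0 with hairpin 2, and 45.2 and 37.8 in control. The list shares Lama1, Lamb1, Lamc1 and Nid1 with the basement membrane genes below. Of the basement membrane genes, 7 were higher and 9 lower with hairpin 2, with a median of -0.08. The brightest parietal endoderm markers were the laminin chains Lamc1 (-0.34, SE 0.16, between hairpins) and Lamb1 (-0.75, SE 0.19) and nidogen, Nid1 (-0.27, SE 0.32). Mesenchymal progenitor markers summed to 24.6 and 23.5 with hairpin 1, against 9.15 to 14.3 on the other 4 arrays, and 7 of the 10 measured were well above background throughout. That sum was mostly Tcf15, a factor of paraxial mesoderm, at log2 levels of 4.54 and 4.46 with hairpin 1 and of 2.99 to 3.71 elsewhere. Over the list, 4 of 10 were higher and 6 lower with hairpin 2, with a median of -0.07. The part of either in the hairpin differences was not tested. Each vector kept its array position on the 2 slides (control 2, hairpin 1 3, hairpin 2 4), which makes vector and position inseparable: they cannot be told apart.

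Calls in the hairpin comparison turned on which arrays were fitted. When either control array was left out, which leaves 1 residual degree of freedom, 8 of the 40 passed, where 718 of all genes did. These were Col1a1, Col3a1, Col5a2, Lum, Dcn, Fbln5, Postn and Pdgfra. Without hairpin 1 of day 9 only Lum passed (adjusted p = 0.0277), and without hairpin 1 of day 12 only Dcn (adjusted p = 0.0268), in fits where 167 and 305 of all genes passed.

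**Figure D3:**
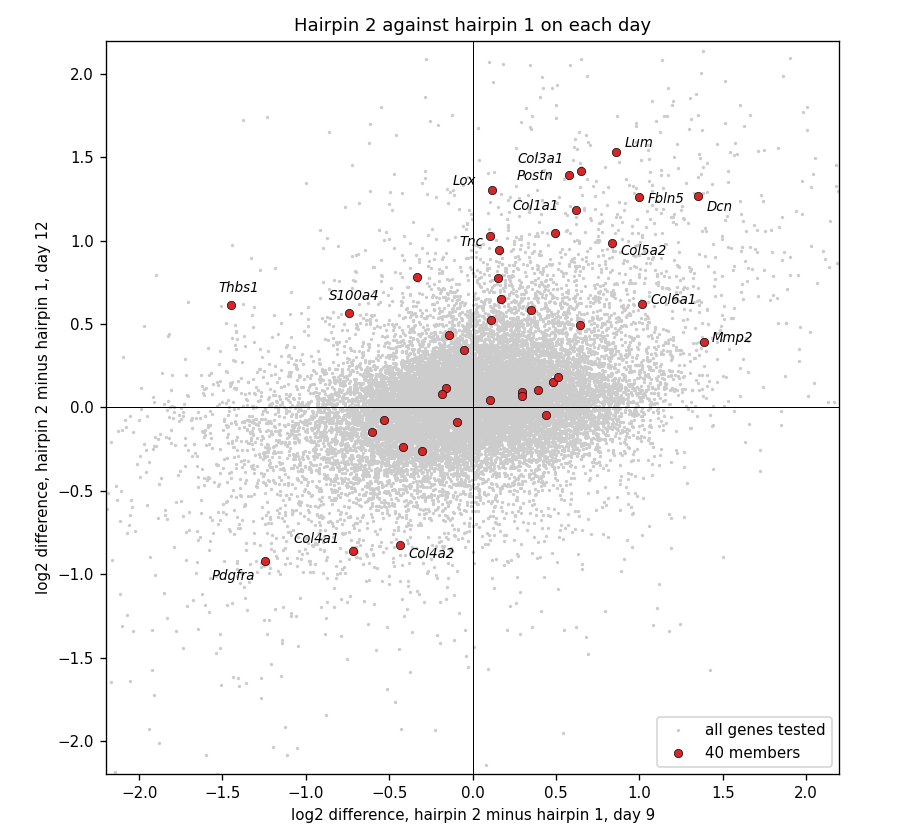
Log2 difference between the hairpin 2 and hairpin 1 arrays of day 9 (x axis) and of day 12 (y axis). Grey points are all genes tested, of which 131 lie outside the axes, and red points the 40 genes, 16 of them named. Lum, Col3a1, Postn, Fbln5 and Dcn lie at the upper right, and Pdgfra, Col4a1 and Col4a2 at the lower left.

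The single arrays differed in how far the 40 genes stood from control. The median difference was 0.20 for hairpin 1 and 0.33 for hairpin 2 at day 9, and 0.40 and 0.62 at day 12, while the median of all genes lay between -0.03 and 0.03. For 20 of the 40 genes the highest of the 4 differences was that of hairpin 2 at day 12. The share of all genes with this order was not counted, so the count is not read as a trait of the 40. On that array 54.1% of all genes were above control, against 47.3% to 48.6% on the other knockdown arrays. By day, the median fitted difference was 0.22 at day 9, with 32 of 40 higher, and 0.50 at day 12, with 33 higher, where 47.2% and 51.3% of all genes were higher. The difference between the 2 effects had a median of 0.20, with 29 of 40 above 0 against 54.8% of all genes. It came to 0.06 without hairpin 2 of day 12, and to 0.06 with normexp, where the median of all genes was -0.11. With limma 0 of the 40 passed in any of the 3, where 0.00494%, 0.00494% and 0% of all genes did, and the lowest unadjusted p for the difference was 0.118, for Lox.

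The comparison of day 12 with day 9 asks what changes as differentiation goes on, and each day has a slide of its own, from which it cannot be told apart. The 40 genes were split, with 16 higher and 24 lower at day 12, where 50.3% of all genes were higher, and a median of -0.12 against 0.00. With limma 0 of the 40 passed, where 0.148% of all genes did. At an unadjusted p under 0.05, 2 were higher and 5 lower, against 7.21% and 4.82% of all genes. In all 3 vectors, 8 were higher and 14 lower, against 20.5% and 19.7%. At least 2-fold differences were fitted for Lum, Col6a3 and Dcn, which were higher, against 2.51% of all genes, and for Col1a2, which was lower, against 0.351%. The median was -0.04 when either control array was left out.

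Lum was higher at day 12 in each vector, by 3.16 in control, 2.29 with hairpin 1 and 2.96 with hairpin 2. The fitted difference was 2.80 (SE 0.45, adjusted p = 0.103). With the vector as a replicate block it passed (adjusted p = 0.0116), where 1.49% of all genes did, the only call among the 40 in that fit of the day contrast. Of the 3 day 9 arrays, only that of hairpin 2 was well above background, so the values of the other two vectors, the fit and the call rest on day 9 values near background. With normexp the difference was 0.19. Col6a3 was higher by 1.25 (SE 0.28, adjusted p = 0.159), by 1.09 in control, 0.87 with hairpin 1 and 1.79 with hairpin 2, and by 0.26 in the fit with normexp. Dcn (1.09, SE 0.50), Fbln5 (0.80, SE 0.40), Pdgfra (0.51, SE 0.39), Fbn1 (0.37, SE 0.15), Fbln2 (0.26, SE 0.23) and Timp1 (0.15, SE 0.13) were also higher in every vector. With normexp, which moved the median of all genes to -0.12, the differences of Dcn, Pdgfra and Fbn1 were negative.

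Type I collagen went the other way. Col1a2 was lower at day 12 by 2.03 in control, 1.29 with hairpin 1 and 0.74 with hairpin 2 on the log2 scale, and the fitted difference was -1.35 (SE 0.36, adjusted p = 0.228). Col1a1 was lower by a fitted 0.82 (SE 0.38), most in control at -1.42 and least with hairpin 2 at -0.24. Tagln, an actin-binding protein of smooth muscle, was lower by 0.81 (SE 0.23, adjusted p = 0.250), and its dimmer probe gave -0.98. Postn (-0.74, SE 0.39), Col5a2 (-0.66, SE 0.33), Twist2 (-0.58, SE 0.15), Timp2 (-0.55, SE 0.17) and Bgn (-0.49, SE 0.18) were lower in every vector as well.

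**Figure D4:**
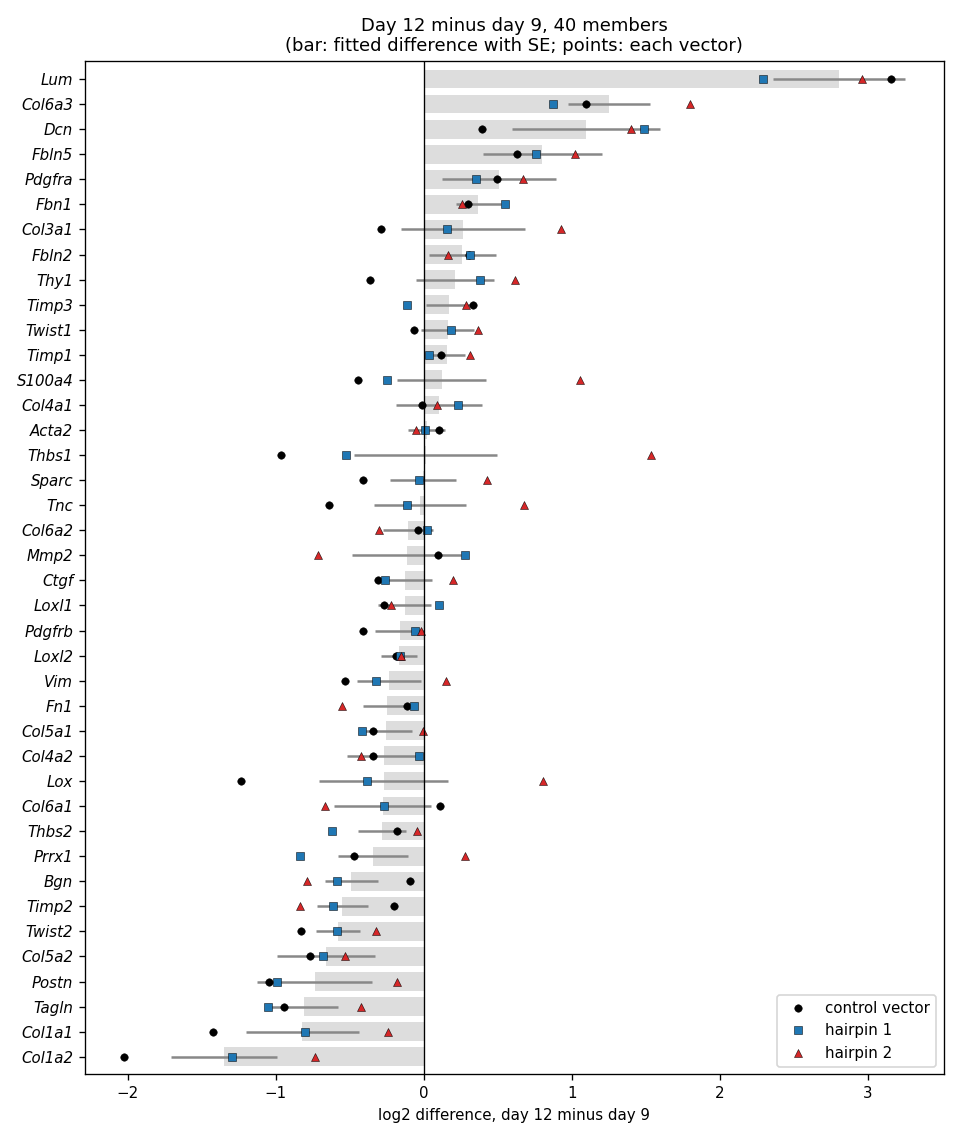
Log2 difference of day 12 from day 9 (x axis) for the 40 genes (y axis). Black circles are control, blue squares hairpin 1 and red triangles hairpin 2, and the grey bar is the fitted difference with its standard error as a line. Lum extends farthest right at 2.80 and Col1a2 farthest left at -1.35, and for Thbs1, Lox and Tnc the 3 vectors lie on both sides of 0.

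Other genes of the same pathways, none of them among the 40, differed less between knockdown and control. No gene of the 10 pathway lists passed with limma in the knockdown or hairpin comparison. Of 19 other collagens, 12 were higher with a median of 0.12, and among those well above background on all 6 arrays the largest differences were in Col13a1 (0.81, SE 0.28), a transmembrane collagen, and Col5a3 (0.72, SE 0.14), the third type V chain. Of 17 genes of collagen processing, 14 were higher with a median of 0.18, among them Pcolce (0.72, SE 0.21), which speeds the trimming of procollagen, and Crtap (0.51, SE 0.13), a subunit of the prolyl hydroxylase complex. Basement membrane genes were even, 8 higher and 8 lower, with Lama1 at 0.88 (SE 0.30) and Fras1 at -0.62 (SE 0.16). Fras1 fell from day 9 to day 12 (-1.94, adjusted p = 0.0292), the only call of the pathway lists in that comparison.

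Of 27 other matrix glycoproteins and proteoglycans, 13 were higher, with a median of -0.01, led by Spon2 (1.12, SE 0.18), Mgp (0.90, SE 0.48), the matrix Gla protein, and Fstl1 (0.85, SE 0.15). Among 17 proteases and inhibitors 13 were higher, led by Adamts9 (0.82, SE 0.16), and among 23 matrix receptors 16 were, led by the syndecan Sdc2 (0.61, SE 0.17). Of 19 genes of the TGF-beta pathway, which drives matrix synthesis in fibroblasts, 11 were higher with a median of 0.10. Ltbp4, which holds latent TGF-beta in the matrix, had 0.87 (SE 0.14), Inhba 0.57 (SE 0.30) and Ltbp3 0.53 (SE 0.18). The PDGF pathway had 5 of 9 higher with a median of 0.01, and its ligand Pdgfc 0.79 (SE 0.34). Regulators of epithelial-mesenchymal transition and adhesion had 9 of 12 higher, with Zeb2 at 0.57 (SE 0.13), and smooth muscle and SRF genes 5 of 14, with a median of -0.10.

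Markers of several other cell types were measured beside the 40. Visceral endoderm markers had 10 of 11 higher in knockdown with a median of 0.73, and a summed level of 2.96 in both control arrays against 4.65 to 5.71 in knockdown arrays; the brightest, Rbp4, had 0.65 (SE 0.25). Parietal endoderm markers had 10 of 10 higher with a median of 0.56. Summed neural markers were at 4.56 to 4.65 in control and 6.68 to 7.23 in knockdown, with 6 of 8 higher and a median of 0.21, or 4 of 8 and 0.01 at day 12. Stmn2, at 1.60 (SE 0.14), made up much of the rise in that sum. Of these 3 lists, visceral endoderm and neural markers had sums that did not overlap between control and knockdown, and parietal endoderm markers had sums that did.

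For the lists that follow the sums in control and knockdown arrays overlapped. Smooth muscle and pericyte markers, all 8 measured ones well above background, summed to 4.46 to 4.70 in control and 4.48 to 6.53 in knockdown, with 5 of 8 higher. Skeletal and heart muscle markers summed to 3.1 to 3.89 and 3.79 to 5.88 (4 of 9 higher), and cartilage and bone markers to 26.5 to 42.9 and 35.6 to 42.8 (4 of 7 higher). Endothelial markers summed to 15.7 to 16.4 and 16.2 to 18.0 (7 of 10 higher) and blood markers to 3.64 to 4.40 and 3.83 to 5.51 (5 of 7 higher), where Ptprc, Spi1 and Itgam were not among the genes measured. Epithelial markers, led by the keratins Krt18 and Krt8, summed to 208 to 243 and 182 to 332 (4 of 10 higher) and gonadal somatic markers to 0.658 to 0.773 and 0.653 to 0.874 (6 of 10 higher). In the mesenchymal progenitor list 8 of 10 were higher, with a median of 0.24. Feeder cells have no marker of their own in these lists, apart from the 40 genes. The part of any other cell type in the matrix differences was not tested.

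**Figure D5:**
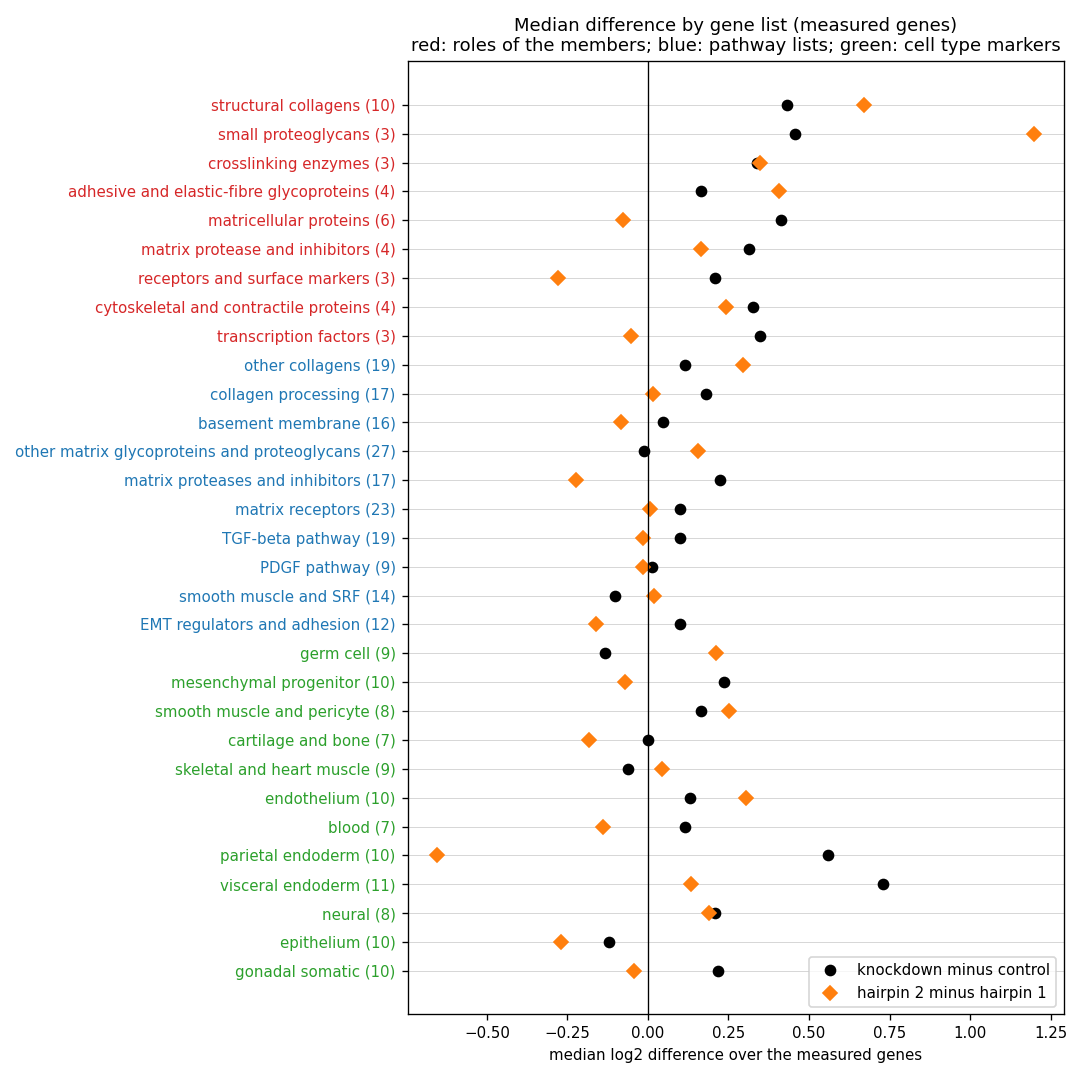
Median log2 difference (x axis) over the measured genes of each list (y axis, number of measured genes in parentheses), for knockdown minus control (black circles) and hairpin 2 minus hairpin 1 (orange diamonds). Red names are roles of the 40 genes, blue names pathway lists and green names cell type markers. The small proteoglycans and parietal endoderm markers have the diamonds farthest right and left, at 1.20 and -0.65.

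Some of the 40 genes are neighbours in the genome. By the GRCm38.p6 gene table, Col3a1 and Col5a2 lie next to each other on chromosome 1, 24624 bases apart, and Dcn and Lum on chromosome 10, 47337 bases apart. Col6a2 and Col6a1 are neighbours on chromosome 10 with 85161 bases between them, and Col4a1 and Col4a2 stand head to head on chromosome 8. Neighbours had the same sign in the fit between hairpins, at 1.03 and 0.91, 1.31 and 1.20, 0.32 and 0.82, and -0.79 and -0.63, in the order given. A dimmer Col6a2 probe gave -0.32. The interstitial chains and small proteoglycans all had a higher fitted level with hairpin 2, so a shared sign is not read as a trait of neighbours. Between knockdown and control, Col3a1 had 1.48 and Col5a2 -0.00, and Lum 2.16 and Dcn 0.34.

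Promoter windows were found for 26 of the 40 genes, with 30 starts in all. Within the 250 bases before the start, on either strand, TATAAA was in 26.7% of these windows and in 12.4% of all 32851 windows, and GGGCGG in 53.3% and 32.7%. CCAAT was in 33.3% and 33.9%, GGAATG in 16.7% and 12.6%, TGANTCA, the AP-1 core, in 3.33% and 6.75%, and the CArG box, bound by SRF, in 0% and 1.47%. TATAAA stood in windows of Col3a1, Postn, Tnc, Thbs2, Vim, S100a4 and Twist1. A match describes the letters of the window and no binding.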

How the data were processed

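The samples were hybridised to 1-colour Agilent arrays of 4 fields per slide. The deposited intensity values are processed signals, background-subtracted by Feature Extraction 9.1.3.1 per the file headers, which also flag outlier and well-above-background spots. The authors' deposited table holds a ratio per probe, which matches the background-subtracted signal over 1 scaling value per array. It also holds a quality score per entry, whose making is not given in the sources used here. The ratio, with low values raised here to 0.10, served as an alternative, and the deposited score served only to match the table's entries to spots. Here, spots of a probe were averaged without outlier spots, log2 signals were set to the 75th percentile of each array, and each gene was read from its brightest probe among the 30212 that were well above background on at least 2 of 6 arrays. Of the 79 probes of the 40 genes, 63 passed. Array gene names were updated through RefSeq tables, 22888 probes by accession and 9738 by symbol.

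Tests used limma 3.58.1 in R 4.3.3 with Benjamini-Hochberg adjustment over 20233 genes, at a threshold of 0.05. Knockdown and day were terms of 1 fit with 3 residual degrees of freedom. Hairpins used a fit of day and vector, and each day's knockdown effect a fit of 4 groups, which assumes that a lone control varies like the knockdown pairs; both have 2. The fits were tested on simulated data. The labels do not say whether samples came from separate cultures, so p-values measure the spread between these samples, which may be technical, and the number of arrays limits the precision. Deviations from the mean of each day's arrays correlated for the same vector on the 2 days (r = 0.37, 0.53 and 0.25 for control, hairpin 1 and hairpin 2). Between vectors r was -0.33 to -0.02. The deviations still hold the knockdown effect. Centring ties the correlations between vectors to those within a vector, so these are not separate evidence. The vector was taken to pair the arrays. The fit of knockdown and day has no vector term, so the 2 days of a vector count there as separate samples. Its knockdown contrast rests on 1 control vector and 2 hairpins. Fits with the vector as a replicate block are given where they change a call, and their knockdown p leaves out the spread between vectors.

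The 40 genes, the pathway and marker lists and the tests were chosen with earlier results of these data known. All 40 genes are reported. From each list the text names some of the 3 genes with the largest knockdown difference among those well above background on all 6 arrays (pathways), or with the highest level (cell types). Alternatives were normexp with an offset of 50, the authors' table, quantile normalization, other filters on dim probes, the mean of a gene's probes, a trended and robust prior, the replicate block and leaving out each array.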

Additional observations from a re-analysis of the deposited data

Results flagged for a closer look

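The 2 hairpins lay on opposite sides of control on both days for the genes named here. How common this is among all genes was not counted, so it is not read as a trait of the 40. With hairpin 1 at day 9, Col6a1 (-0.005) and Tagln (-0.01) were close to control. The difference between hairpin 2 and hairpin 1 was 0.91 for Col5a2 (mean difference from control -0.46 with hairpin 1 and 0.45 with hairpin 2, adjusted p = 0.140) and 0.82 for Col6a1 (-0.19 and 0.62, adjusted p = 0.273). It was 0.57 for Fbln2 (-0.32 and 0.25, adjusted p = 0.280), 1.13 for Fbln5 (-0.21 and 0.92, adjusted p = 0.119) and 0.46 for Tagln (-0.07 and 0.40, adjusted p = 0.469). Pdgfra went the other way, at -1.08 (0.65 and -0.44, adjusted p = 0.119). None of these passed with limma.

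For Thbs1 and Timp2, the 2 days lay on opposite sides of 0 with both hairpins, a pattern that was not counted over all genes either. The knockdown effect at day 12 minus that at day 9 was 1.47 for Thbs1 (-0.75 at day 9 and 0.72 at day 12) and -0.52 for Timp2 (0.32 and -0.20), with an adjusted p of 1.0 by limma for both. For Thbs1, the hairpin 1 difference at day 9 was -0.03, against -1.47 for hairpin 2.

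A single difference stood far from the other 3 of a gene in 2 cases, both in hairpin 2 at day 9. For Fn1 it was 0.29, where the others lay between -0.15 and -0.10. For Ctgf it was -0.0769, where the others lay between 0.43 and 0.50. Chance gives about 1 such case in 20 genes, and 40 genes were examined.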

How the results depend on the processing

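The medians of the 40 genes kept their direction under every alternative run. Single genes changed sign under at least 1 of them: 12 of the 40 for knockdown (5 with all arrays kept), 14 for hairpins (7) and 17 for day (10). The counts of genes past an adjusted p under 0.05 moved most. For knockdown against control, 0 of all genes passed; 2 did with normexp, 8 with the filter on all 6 arrays, 1 with the mean of a gene's probes, 2 with the trended and robust prior, 20 where the replicate block was the vector, and 0 to 1 when an array was left out. For day 12 against day 9, 30 passed; 1 did with normexp, 0 with no filter, 301 with the replicate block, of which 1 (Lum) is among the 40, and 0 to 15 when an array was left out. The block changed no other call among the 40; it could not be fitted to the hairpin comparison or within a day. For hairpin 2 against hairpin 1, 2 passed; 110 did with normexp (1 of the 40, Fbln5), 20 with the authors' table, 1 with quantile normalization, 40 with the filter on all 6 arrays, 0 with no filter, 61 with the trended and robust prior, and 0 to 718 when an array was left out (0 to 8 of the 40). The median knockdown difference of the 40 at day 9, 0.22, was 0.31 with normexp, which moved the median of all genes there to 0.16, and 0.20 to 0.33 when an array was left out. The cause of these shifts was not tested. A single array per vector and day limits all comparisons, and 3 of the 40 genes had arrays not well above background. Without a day's control array, no effect for that day was fitted.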

Other observations

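Genes of chromosome 1 had a median knockdown difference of -0.18 over 840 genes well above background on all 6 arrays, where the medians of the other autosomes lay between -0.03 and 0.06. Of the 40 genes, Col3a1, Col5a2, Fn1, Prrx1, Col6a3 and Twist2 lie there, with knockdown differences of 1.48, -0.00, -0.02, 0.21, -0.48 and 0.71.

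Actc1, the cardiac actin, was higher with hairpin 2 than with hairpin 1 by 1.32 (SE 0.28, adjusted p = 0.178), beside the 1.57 of the bright alternative Acta2 probe. Csf1r, the receptor of macrophage growth factor, was lower with hairpin 2 by 1.15 on the log2 scale (SE 0.17, adjusted p = 0.118), and Flt1, a VEGF receptor of endothelium, by 0.96 (SE 0.27, adjusted p = 0.283). None of the 3 passed with limma.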
